A study of Mus musculus with 35 samples.

Results

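NUP98-DDX10 is a leukemia fusion gene, and the comparison described here asked which transcripts differed when it had been switched off for 5 days. The 3 libraries of doxycycline day 5 were set against the 4 untreated NUP98-DDX10 libraries, chosen by their titles, 7 of the 35 samples of the series and of its 33 RNA libraries. All came from bone marrow of mice on a C57BL/6 background that had been transplanted with cells carrying a regulatable NUP98/DDX10 fusion. The treated mice received doxycycline at 4 mg/ml for 5 days, and the untreated group pooled 1 library titled day 3 and 3 titled day 5. Cells were sorted for GFP and the donor marker CD45.2, and stranded poly-A libraries were sequenced, per the labels. The other RNA libraries held NUP98-DDX10 cells after 3 days of doxycycline, cells with NUP98-JARID1A or NUP98-NSD1 under the same regimes, and controls. Every library with a fusion off came from mice given doxycycline, and no untreated or control library did. Effects of the drug itself and of loss of the fusion thus cannot be told apart. The words "with a fusion off" below stand for both. The labels number libraries but no animals and no primary leukemias, so a p-value speaks for the spread among libraries alone, which may be technical. This spread was estimated within groups over all 33 RNA libraries. A gene can thus miss the call although its values in the 7 libraries lie far apart. Bulk libraries cannot tell fewer cells of a type from less RNA per cell.

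NUP98 is a nuclear pore protein, and its leukemia fusions join its repeat-rich start to the end of a partner, here the RNA helicase DDX10. Such fusions are known to keep the HOXA cluster and MEIS1 on, transcription factors of blood stem and progenitor cells that are normally shut down as myeloid cells mature. CDK6, the gene that the series title names, is a kinase that with D-type cyclins phosphorylates the retinoblastoma protein and lets cells enter S phase. Type I interferon signals through JAK kinases to STAT factors, which with IRF9 bind the interferon-stimulated response element before many antiviral genes. Blood cells express many of these genes at a basal level without infection.

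The 7 libraries held 12510513 to 15554633 reads assigned to genes. Values are normalized read counts as deposited, and log2 changes are day 5 minus untreated on log2(value + 1), a scale that shrinks the change of a gene with few reads. A value after ± beside a log2 change is its standard error, and "rose", "fell" and "called" refer to limma's adjusted p under 0.05. On the first principal component of the NUP98-DDX10 libraries day 5 libraries lay at -41.7 to -32, day 3 libraries at -10.5 to 3.6 and untreated libraries at 25.8 to 39.7. Ptprc, the CD45 gene, had 6881, 6844 and 7839 in day 5 libraries, against 4949 to 5801 in untreated ones. Itgam, which encodes the myeloid integrin CD11b, had 11390 to 13589 at day 5 and 8228 to 9880 in untreated libraries. Spi1, Cebpa, Mpo and Csf1r, further defining markers of the myeloid lineage, were present in all 7 libraries.

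The NUP98-DDX10 transcript was near 0 after 5 days. It had 6.59, 4.3 and 8.01 in day 5 libraries, against 13956, 14121, 12715 and 9003 in untreated libraries. The groups were far apart, day 5 keeping 0.0506% of the untreated mean (log2 change -10.75 ± 0.29, limma adjusted p = 7.73e-21, n = 3 and 4). At day 3 it already stood at 4.48, 3.19 and 7.29. The eGFP transcript had 3.29, 2.15 and 4.01 at day 5, against 14453, 11064, 9082 and 7445 in untreated libraries (-11.29 ± 0.54, adjusted p = 1.24e-14), in cells that the labels describe as sorted for GFP. The luciferase transcript had 1904, 2688 and 2266 at day 5 and 1774, 1596, 1242 and 1398 in untreated libraries. All day 5 libraries were above all untreated ones for luciferase, yet the change of 0.60 ± 0.68 did not pass the test (adjusted p = 0.602). The endogenous Nup98 (-0.21, adjusted p = 0.204) and Ddx10 (0.18, adjusted p = 0.376) were not called.

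Cdk6 (Entrez 12571, GRCm38 chr5:3341004-3531008) was lower after 5 days. It had 8687, 7274 and 7445 in day 5 libraries, against 15389, 14648, 12661 and 12973 in untreated libraries. The groups did not overlap, and the day 5 mean was 56.1% of the untreated mean (log2 change -0.83 ± 0.24, adjusted p = 0.0165). The call did not hold in every fit without 1 library. The change was -0.78 (adjusted p = 0.0501) without untreated replicate 1, the library titled day 3, -0.79 (0.0661) without day 5 replicate 2 and -0.80 (0.0703) without day 5 replicate 3. At day 3, a comparison that shares the untreated libraries, Cdk6 had 11640, 12768 and 12440 and was not called (-0.18, adjusted p = 0.81). In the same test Cdk6 fell by 2.04 with NUP98-JARID1A off and by 1.95 with NUP98-NSD1 off for 5 days. The NUP98-DDX10 change was 1.16 above the mean change of those other fusions (adjusted p of the difference = 0.0066).

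**Figure D1:**
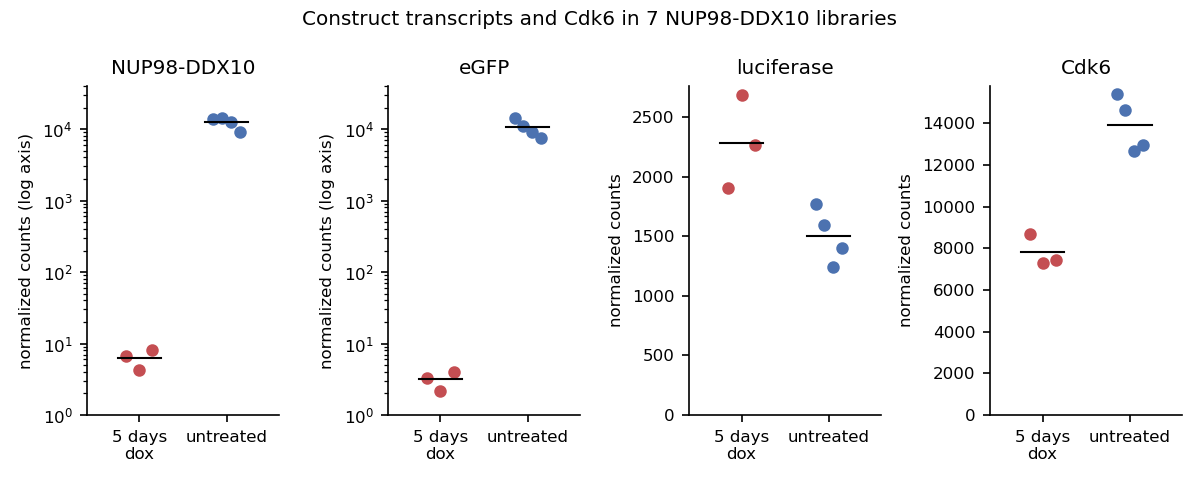
Normalized read counts in the 3 day 5 and 4 untreated NUP98-DDX10 libraries, on log axes for the NUP98-DDX10 and eGFP transcripts and on linear axes for luciferase and Cdk6. Points are libraries, and bars mark group means. The fusion transcript lies at 4.3 to 8.01 at day 5, whereas Cdk6 lies between 7274 and 8687, under the untreated range of 12661 to 15389.

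Among the 12682 genes tested, 823 rose (6.49%) and 1094 fell (8.63%) after 5 days, together 15.1%, and of these 239 rises and 435 falls were at least 2-fold. Without 1 library the counts ran from 379 to 738 higher and from 612 to 967 lower. They were smallest without day 5 replicate 3 (379 and 612), and the number of rises was also over 1.5 times smaller without day 5 replicate 2 (505) and without untreated replicate 1 (516). Groups that did not overlap were seen for 18.7% of genes in the higher and 19.4% in the lower direction. The counts below of gene list members that rose or fell after 5 days are to be read against 6.49% and 8.63%. The median log2 change over all genes was 0. Where a list held no rise or no fall by limma, none was found at an unadjusted p under 0.05, with edgeR or with DESeq2 either, unless stated.

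Among genes with a mean above the median of all those tested, the largest rises past the test were led by genes of myeloid cells. Vcan, which encodes the matrix proteoglycan versican made by monocytes (chr13:89655309-89743027), had 2331, 3221 and 3644 at day 5, against 116, 171, 107 and 304 in untreated libraries. The lowest day 5 value was far above the highest untreated one, a ratio of means of 17.6 (4.23 ± 0.61, adjusted p = 2.43e-05). Fpr2, a formyl peptide receptor of neutrophils and monocytes, had 876, 982 and 1340 at day 5 and 80.7, 164, 88.3 and 174 in untreated libraries (3.12 ± 0.58, adjusted p = 0.000455). Chil3, which encodes a chitinase-like protein of mouse myeloid cells (chr3:106147554-106167564), had 21340, 27846 and 31303 at day 5 and 1710, 4790, 2418 and 5631 in untreated libraries (3.03 ± 0.68, adjusted p = 0.00281). Neither gene overlapped between the groups. The day 3 libraries were uneven for these genes, with 1046, 341 and 1008 for Vcan and 15763, 2545 and 16848 for Chil3, replicate 2 being lowest.

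Other large rises were Crispld2 (log2 change 2.78), Tarm1, an activating receptor of myeloid cells (2.49), Klra2 of the Ly49 receptor family (2.36), Abca6, a lipid transporter of the ABC family (2.03), Hal, the histidine ammonia-lyase (1.96), and Dpep2, a dipeptidase (1.84). Lifr, the receptor of leukemia inhibitory factor, had 2632, 2351 and 2725 at day 5, against 312, 1028, 440 and 858 in untreated libraries (2.12 ± 0.38, adjusted p = 0.000342). Id2, an inhibitor of basic helix-loop-helix factors, had 1925, 2682 and 2177 at day 5 and 516, 709, 451 and 759 in untreated libraries (1.91 ± 0.21, adjusted p = 3.4e-07). Zfp36l1, an RNA-binding protein that speeds decay of AU-rich messages, had 790, 830 and 743 at day 5 and 173, 259, 163 and 279 in untreated libraries (1.88 ± 0.37, adjusted p = 0.000821). All of these had day 5 values above every untreated value, which the choice of named genes required. Klra2 has close copies in the Ly49 family, so its reads may be shared with them.

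Under the same limit on the mean, the largest falls were led by Meis1, the homeobox cofactor of HOX proteins (chr11:18880428-19019651). It had 198, 158 and 166 at day 5, against 2097, 1957, 1847 and 1392 in untreated libraries, with 9.54% of the untreated mean left (-3.37 ± 0.45, adjusted p = 6.69e-06). Its day 3 values, 348, 406 and 336, lay between the groups. Cd28, known as a costimulatory receptor of T cells, had 266, 171 and 145 at day 5 and 2462, 1191, 1940 and 1572 in untreated libraries (-3.20 ± 0.39, adjusted p = 2.39e-06). Heg1, a membrane protein of endothelial junctions, had 115, 99 and 86.1 at day 5 and 1220, 922, 838 and 733 in untreated libraries (-3.18 ± 0.36, adjusted p = 6.82e-07). Hpgd, which inactivates prostaglandins by oxidation (chr8:56294552-56321046), had 3968, 3235 and 3575 at day 5 and 15985, 15841, 17769 and 14861 in untreated libraries (-2.17 ± 0.23, adjusted p = 2.05e-07). In each of these the groups were clear of each other. Further large falls were Sh2d5 (-2.44), the calponin gene Cnn3 (-2.40), the calcium pump gene Atp2b4 (-2.34), the sphingosine receptor gene S1pr3 (-2.32), Tsc22d1 (-2.26), the corepressor gene Cbfa2t3, also known as ETO2 (-2.20), and the focal adhesion gene Tns1 (-2.19).

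**Figure D2:**
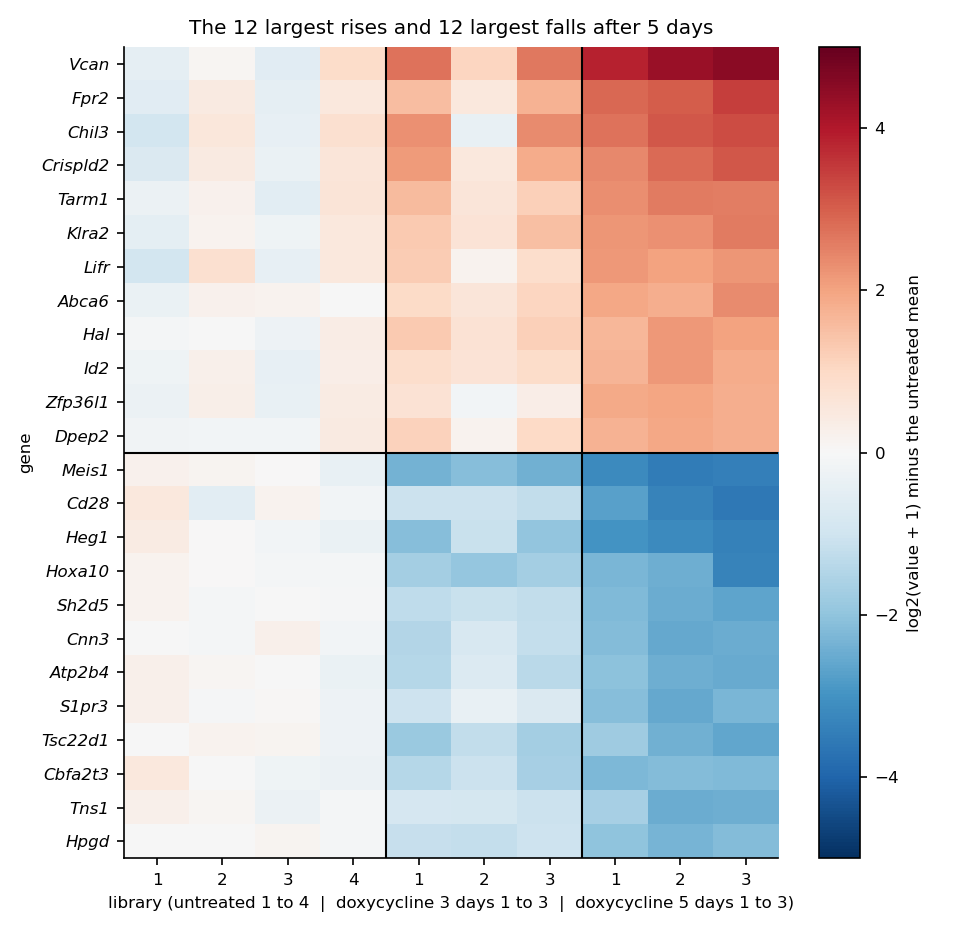
Heat map of the 12 largest rises and 12 largest falls after 5 days of doxycycline among genes with a mean above the median and groups that do not overlap, with genes in rows and the untreated, day 3 and day 5 NUP98-DDX10 libraries in columns. Colour gives the log2 value minus the gene's untreated mean. The day 3 columns lie between the others for most genes, and day 3 replicate 2 is paler than its fellows for rises such as Vcan (341 against 1046 and 1008) and Chil3 (2545 against 15763 and 16848).

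HOX genes of the A cluster and Meis1 were lower. Of the 23 genes in the list of Hox and cofactor genes, 19 passed the filter on low values, of which 9 fell, 2 rose and the median log2 change was -0.53. Hoxa10 (chr6:52231197-52240854) had 200, 176 and 95.2 at day 5, against 1080, 993, 903 and 908 in untreated libraries (-2.69 ± 0.19, adjusted p = 1.57e-10). Hoxa7 had 279, 245 and 173 at day 5 and 851, 680, 605 and 607 in untreated libraries (-1.57 ± 0.22, adjusted p = 2.12e-05). Hoxa9 had 563, 452 and 421 at day 5 and 1808, 1521, 1483 and 1512 in untreated libraries, 30.3% of the untreated mean. The groups did not overlap for any of these, but the Hoxa9 call was close to the threshold (-1.73 ± 0.57, adjusted p = 0.0406). It was lost in all 7 fits that left out 1 library, with a change of -1.85 to -1.64 and an adjusted p of up to 0.135. Hoxa3 (-2.79), Hoxa5 (-2.72), Hoxa6 (-2.24) and Hoxa2 (-1.95) also fell. The count of rises was 1 without untreated replicate 1, 3 or 4 and without day 5 replicate 2 or 3. Transcripts of neighbouring Hoxa genes overlap, and the sources used here do not state whether strand was used in counting, so the split of reads among them is uncertain.

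Progenitor genes were lower as well. Of 34 progenitor and leukemia stem cell genes, 33 were tested, 14 fell, none rose and the median was -0.83. Sox4, a transcription factor of immature cells, had 13.2, 8.61 and 9.01 at day 5, against 272, 180, 234 and 146 in untreated libraries, 4.94% of the untreated mean (-4.20 ± 0.45, adjusted p = 2.59e-07). Angpt1, the ligand of the Tie2 receptor, had 3.29, 5.38 and 4.01 at day 5 and 102, 119, 162 and 65.3 in untreated libraries (-4.38 ± 0.55, adjusted p = 3.91e-06). Erg, an ETS factor of stem cells, had 84.5, 86.1 and 94.2 at day 5 and 402, 370, 405 and 309 in untreated libraries (-2.06 ± 0.38, adjusted p = 0.000521). The groups were separate for all of these, and the day 5 level of Angpt1 rests on few reads. Muc13 (-4.68), Adgrg1 (-1.84), Bcl11a (-1.57), Tcf4 (-1.17) and Runx1 (-0.64) fell as well. Kit, the stem cell factor receptor, had 612, 376 and 423 at day 5 and 1216, 1188, 1321 and 1133 in untreated libraries (-1.40 ± 0.38, adjusted p = 0.0125). Its call was lost without day 5 replicate 2 (-1.25, adjusted p = 0.0661) and without day 5 replicate 3 (-1.34, 0.0596). Cd34 had 3616, 2653 and 2837 at day 5 and 7225 to 9435 in untreated libraries, and at -1.53 ± 0.76 it did not pass the test (adjusted p = 0.183). Flt3, a cytokine receptor of early progenitors, overlapped between the groups (-0.06, adjusted p = 0.951).

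Genes of maturing monocytes were higher in part. Of 34 monocyte and macrophage genes 10 rose, 2 fell and the median was 0.40, with 1 fall without day 5 replicate 1. Tgfbi, a secreted matrix protein induced by TGF-beta, had 17294, 21256 and 21697 at day 5, against 6452, 7075, 5776 and 8031 in untreated libraries (1.56 ± 0.20, adjusted p = 5.47e-06). Apoe, a lipid carrier of macrophages, had 141, 153 and 142 at day 5 and 26.5, 37.2, 40.8 and 40.7 in untreated libraries (1.99 ± 0.28, adjusted p = 1.65e-05). No day 5 value of these genes was within the untreated range. S100a6 (1.33), S100a4 (1.29) and Lgals3 (0.92) rose too. Plac8, a gene of immature monocytes, fell, with 32642, 24981 and 23183 at day 5 and 59661, 53723, 53716 and 53082 in untreated libraries (-1.05 ± 0.20, adjusted p = 0.000678). Fn1, which encodes fibronectin, had 46866, 45452 and 48256 at day 5 and 13672, 15073, 8168 and 15369 in untreated libraries, yet it did not pass the test (1.88 ± 0.71, adjusted p = 0.0734). Csf1r (-0.26, adjusted p = 0.349) and the chemokine receptor gene Ccr2 (-0.48, adjusted p = 0.0835) were not called.

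Few neutrophil granule genes passed the test, though more were apart between the groups. Of 40 secondary and tertiary granule and neutrophil genes 5 rose (12.5%, beside 6.49% of all genes), none fell and the median was 0.40. In 29 the change was above 0, beside 49.5% of all genes. In 19 every day 5 library lay above every untreated one, beside 18.7% of all genes, and in 2 below, beside 19.4%. The count of rises was 3 without day 5 replicate 2. Il1r2, a decoy receptor for interleukin 1, had 738, 513 and 554 at day 5, against 101, 134, 95.1 and 142 in untreated libraries (2.34 ± 0.57, adjusted p = 0.00521). Dgat2, which makes triglycerides, had 411, 582 and 486 at day 5 and 152, 143, 124 and 209 in untreated libraries (1.65 ± 0.43, adjusted p = 0.00851). Lyz2, which encodes lysozyme, had 111975, 124651 and 117013 at day 5 and 51885, 54959, 57555 and 72411 in untreated libraries (1.004 ± 0.27, adjusted p = 0.012). These groups did not overlap, and the Lyz2 call was lost without day 5 replicate 2 (0.96, adjusted p = 0.0501). The secondary granule genes Ltf, lactoferrin, with 3040, 9755 and 5895 at day 5 and 4416 to 6734 in untreated libraries, and Camp, a cathelicidin, overlapped between the groups and were not called (-0.02 and -0.19). Of 14 primary granule genes 1 rose and 5 fell (median -0.61), with 2 falls without day 5 replicate 2 and also without replicate 3. Nkg7, a granule protein, had 47.2, 17.2 and 20 at day 5 and 142, 112, 115 and 146 in untreated libraries (-2.28 ± 0.31, adjusted p = 8.55e-06). Ctsc, the protease that activates granule enzymes, rose (0.72). Mpo, myeloperoxidase, had 32047, 21318 and 21678 at day 5 and 43387 to 65139 in untreated libraries, and its -1.11 ± 0.43 did not pass (adjusted p = 0.0785).

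Of 26 myeloid transcription factors 4 rose and 1 fell (median 0.34). Besides Id2, Klf6, a zinc finger factor, rose, with 2806, 2987 and 3112 at day 5 and 1404, 1628, 1650 and 1744 in untreated libraries (0.89 ± 0.16, adjusted p = 0.000403). Irf4, a factor of lymphoid and dendritic cells, fell, with 126, 103 and 103 at day 5 and 377, 226, 348 and 244 in untreated libraries (-1.39 ± 0.36, adjusted p = 0.00809). Dendritic cell genes were lower as well, 7 of 16 falling and none rising (median -0.80), with 4 falls without day 5 replicate 3. Siglech, a lectin of plasmacytoid dendritic cells, had 20.9, 31.2 and 11 at day 5 and 123, 187, 182 and 203 in untreated libraries (-3.08 ± 0.55, adjusted p = 0.000362). Cd209a, a lectin of DC-SIGN type, fell by 1.77 and Ccr7, the receptor for lymph node chemokines, fell by 3.32 on the log2 scale.

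Interferon response genes were lower after 5 days. The list held 57 genes, of which 56 were tested, 29 fell, none rose, and 2 had a change above 0 (median -0.91). In 46 of them every day 5 library lay under every untreated one, beside 19.4% of all genes. Their mean log2 level was 7.07 to 7.16 in day 5 libraries and 7.98 to 8.16 in untreated libraries, with day 3 libraries at 7.20 to 7.52. The count of falls was 19 without untreated replicate 1, 15 without day 5 replicate 1, and 14 without day 5 replicate 2 and likewise without replicate 3. edgeR called 28 and DESeq2 called 33 of them lower.

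The letters of the interferon-stimulated response element core, GAAA, then any 2 bases, then GAAA again on the given strand, or TTTC, any 2 bases and TTTC on the other, were looked up in the 250 bases before annotated starts, because the members of this list moved together. Of the 42 list genes in the RefSeq promoter table (GRCm38.p6), 22 held the letters (52.4%), beside 2.98% of all 32851 promoters and 3.43% of the 10158 tested genes in the table. The list was made of interferon response genes, so its share beside all promoters does not bear on the change at day 5. Among list genes that fell 12 of 21 held them, and among list genes not called 10 of 21. The 4 promoters below belong to the falling genes with the smallest adjusted p among those that hold the letters; all lie on the minus strand and are written in the direction of transcription. Capitals mark the letters, and matches that overlap share bases. Oas1a lies at chr5:120907526-120907775, Ifi203 at chr1:173942493-173942742, Oas1g at chr5:120887614-120887863 and Bst2 at chr8:71537473-71537722. In Oas1a, Oas1g and Bst2 a pair of matches overlapped, and the capitals of Oas1a and Oas1g read alike. A match describes these letters and not binding.
Oas1a: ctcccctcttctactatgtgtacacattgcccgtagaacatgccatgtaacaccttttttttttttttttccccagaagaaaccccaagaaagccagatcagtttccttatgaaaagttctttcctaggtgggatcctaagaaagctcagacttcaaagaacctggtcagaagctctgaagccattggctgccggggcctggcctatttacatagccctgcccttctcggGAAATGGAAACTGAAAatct
Ifi203: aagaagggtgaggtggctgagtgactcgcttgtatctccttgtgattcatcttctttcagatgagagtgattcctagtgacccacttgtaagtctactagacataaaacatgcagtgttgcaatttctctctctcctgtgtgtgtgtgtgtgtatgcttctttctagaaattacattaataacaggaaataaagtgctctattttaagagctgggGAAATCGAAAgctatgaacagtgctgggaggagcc
Oas1g: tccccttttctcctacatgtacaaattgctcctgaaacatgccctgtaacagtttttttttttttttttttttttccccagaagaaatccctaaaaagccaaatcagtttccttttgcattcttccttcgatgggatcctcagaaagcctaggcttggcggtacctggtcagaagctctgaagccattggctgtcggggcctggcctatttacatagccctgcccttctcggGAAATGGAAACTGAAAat
Bst2: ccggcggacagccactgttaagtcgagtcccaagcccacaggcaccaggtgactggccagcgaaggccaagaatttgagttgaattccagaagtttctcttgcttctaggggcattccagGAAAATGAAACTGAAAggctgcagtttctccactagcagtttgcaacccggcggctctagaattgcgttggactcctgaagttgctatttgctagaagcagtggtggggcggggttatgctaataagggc

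Oas1a, which encodes a 2'-5'-oligoadenylate synthetase (chr5:120896256-120907544), had 101, 75.3 and 68.1 at day 5, against 247, 216, 281 and 277 in untreated libraries (-1.65 ± 0.30, adjusted p = 0.00046). Ifi203, a gene of the interferon-inducible Ifi200 family, had 476, 368 and 388 at day 5 and 1106, 866, 1123 and 855 in untreated libraries (-1.26). Bst2, known as tetherin, had 234, 230 and 187 at day 5 and 328, 345, 343 and 413 in untreated libraries (-0.72, adjusted p = 0.0137). The day 5 values of these were all under the untreated values, and the Bst2 call was lost without day 5 replicate 3 (adjusted p = 0.0926). Oas1g had 2.2, 1.08 and 5.01 at day 5 and 6.13, 16.3, 10.7 and 15.1 in untreated libraries, a handful of reads, and its call was lost without day 5 replicate 2 (adjusted p = 0.0947). Oas1a and Oas1g, and the genes of the Ifi200 family, have close copies, so the split of reads within each family is uncertain.

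The factors that carry the interferon signal to DNA were among the members that fell. Irf7, the factor that amplifies type I interferon (chr7:141263183-141266499), had 215, 305 and 232 at day 5, against 860, 627, 691 and 826 in untreated libraries (-1.58 ± 0.33, adjusted p = 0.00139). Irf9, the DNA-binding partner of the STATs (chr14:55603985-55610030), had 657, 655 and 572 at day 5 and 1336, 1136, 1200 and 1275 in untreated libraries, 50.8% of the untreated mean (-0.98 ± 0.20, adjusted p = 0.00111). Neither overlapped between groups. Among effectors, Rtp4 (-2.47), the deISGylase gene Usp18 (-2.20), the oligoadenylate synthetase-like gene Oasl2 (-2.10), Ifi27l2a (-1.68) and the galectin ligand gene Lgals3bp (-1.43) fell. Mx1, an antiviral GTPase, overlapped between groups (-0.06, adjusted p = 0.942). Isg15, a ubiquitin-like modifier, was at 4.01 to 11 in day 5 and 11.6 to 18.4 in untreated libraries and was not called (-0.97, adjusted p = 0.238), nor was Irf1 (-0.93, adjusted p = 0.059).

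**Figure D3:**
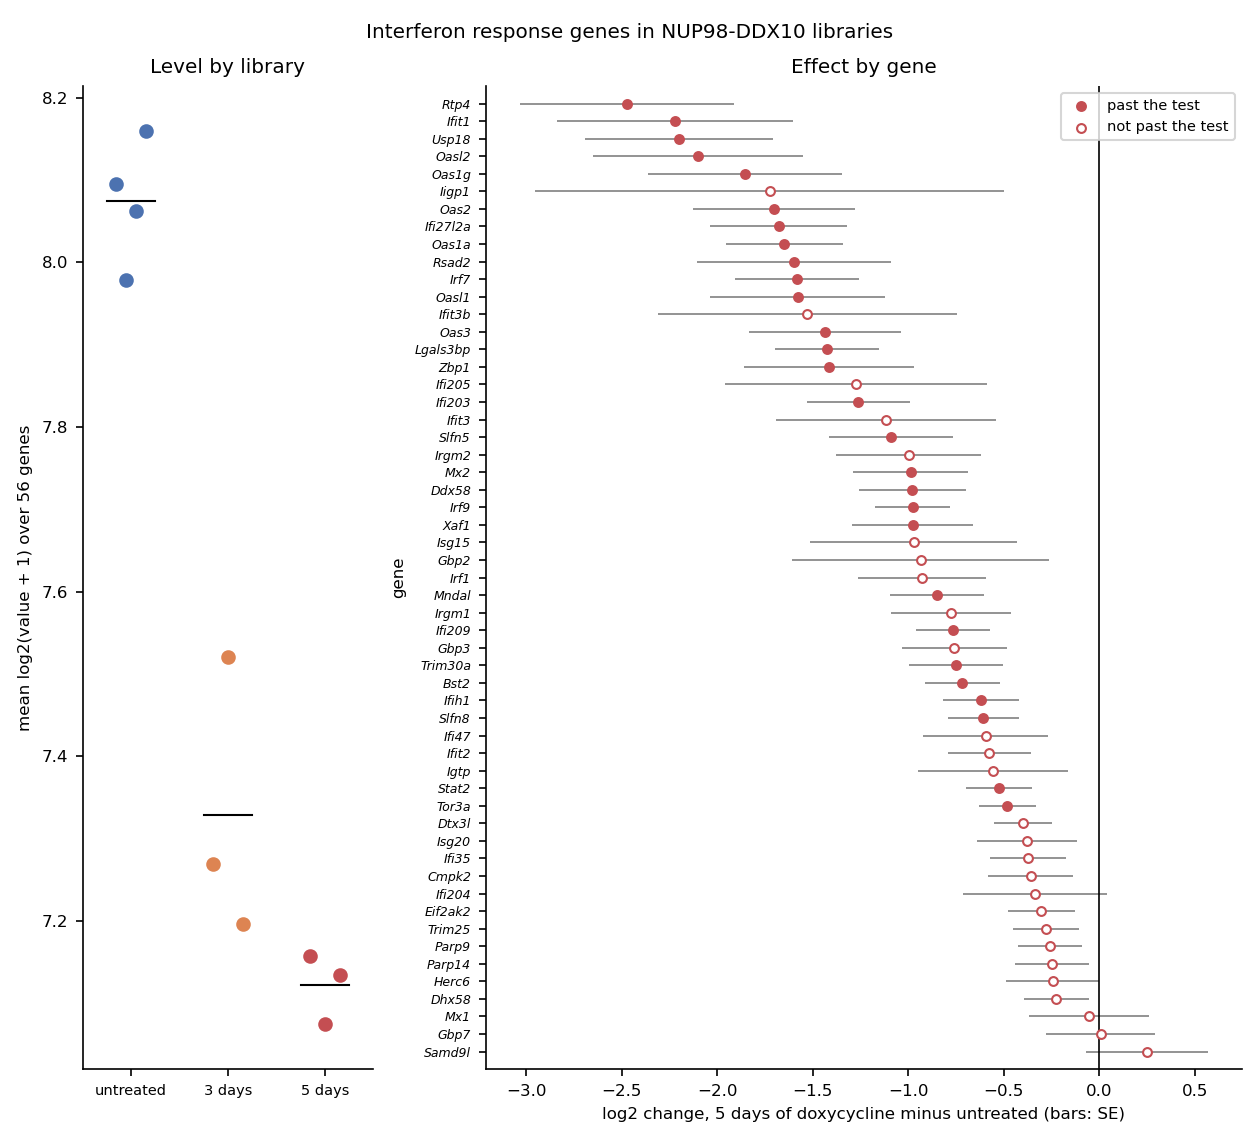
Interferon response genes in NUP98-DDX10 cells. The left panel gives the mean log2 level of the 56 tested genes in each untreated, day 3 and day 5 library, with bars at group means, and the right panel the log2 change of single genes (1 of them not shown), day 5 minus untreated, with its standard error and with filled points past adjusted p 0.05. Day 5 libraries lie at 7.07 to 7.16 and untreated ones at 7.98 to 8.16, and 2 of the genes shown are above 0.

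With the other fusions off for 5 days, the same list did not move one way. Its median was -0.91 with NUP98-DDX10 off, 0.05 with NUP98-JARID1A off (3 higher, 4 lower) and -0.11 with NUP98-NSD1 off (4 higher, 4 lower). Of all genes, 20.1% were called higher and 21.2% lower with NUP98-JARID1A off, and 13.5% higher and 11.9% lower with NUP98-NSD1 off. In the test of the difference, 17 of the 56 members were lower with NUP98-DDX10 off than the mean of the other fusions, beside 10.1% of all genes, and none higher, beside 7.8% of all genes. Without 1 library 11 to 15 members were lower, 11 without day 5 replicate 1. Irf7 changed by 0.10 and 0.19 with NUP98-JARID1A and NUP98-NSD1 off (difference -1.73, adjusted p = 0.0037). Irf9 changed by 0.30 and -0.02 in the same order (difference -1.11, adjusted p = 0.0021).

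Genes of antigen presentation on MHC class I were lower too. Of 17 class I and peptide loading genes 15 were tested, 9 fell and none rose (median -0.70). The count was 5 without untreated replicate 1 and 2 without day 5 replicate 3. The class I list was also lower with the other fusions off. Its median was -0.43 with NUP98-JARID1A off (1 higher, 6 lower) and -0.62 with NUP98-NSD1 off (0 higher, 8 lower). Of all genes, 21.2% and 11.9% were called lower there. The median difference of the list from the other fusions was -0.03. B2m, the light chain of class I molecules, had 62343, 44927 and 43579 at day 5, against 92730, 87232, 83661 and 88694 in untreated libraries (-0.83 ± 0.19, adjusted p = 0.00431). Tap2, a subunit of the peptide transporter, had 493, 450 and 466 at day 5 and 749, 861, 766 and 818 in untreated libraries (-0.76 ± 0.17, adjusted p = 0.00235). Both genes kept their groups apart and their calls in each fit without 1 library. H2 class I heavy chain genes are near-identical copies of each other and are not read singly here. Among the 10 class II genes H2-Ob, which encodes a chaperone subunit, was the 1 gene that fell (-1.79), and the median was -0.89. H2-Aa, the class II alpha chain, had 169, 223 and 234 at day 5 and 530, 552, 351 and 411 in untreated libraries and was not called (-1.13 ± 0.69, adjusted p = 0.285).

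Receptors and signalling genes moved in both directions. Of 27 interferon and JAK-STAT receptors and regulators 3 rose and 3 fell (median -0.02), with 1 rise without untreated replicate 1, without day 5 replicate 2 or without day 5 replicate 3. Sting1, the sensor adaptor for cytosolic DNA, had 2073, 2126 and 2009 at day 5, against 4332, 3967, 3918 and 3885 in untreated libraries (-0.96 ± 0.22, adjusted p = 0.0031). Stat5a fell by 0.45 on the log2 scale. Of 26 tested cytokine receptors 2 rose and 5 fell (median -0.12), with 1 fall left without day 5 replicate 3, 2 without untreated replicate 1 and 3 without day 5 replicate 2. The rises came down to 1, Lifr, in 6 of the 7 fits without 1 library. Il10rb, a shared subunit of interleukin 10 and interferon lambda receptors, had 1418, 1343 and 1317 at day 5 and 2282, 2227, 2199 and 2417 in untreated libraries. Its groups were narrow and apart, and at -0.75 ± 0.08 it had an adjusted p of 2.05e-07; at day 3 it had 1471, 1252 and 1304.

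Of 29 tested chemokines, inflammatory cytokines and their receptors 4 rose and 2 fell (median 0.11). C3ar1, the receptor of complement fragment C3a, had 166, 154 and 161 at day 5, against 28.6, 23.3, 42.7 and 31.2 in untreated libraries (2.35 ± 0.40, adjusted p = 0.000175). The chemokine gene Ccl6 rose by 1.34 and Cxcl16, a membrane-bound chemokine, fell by 1.75 on the log2 scale. Of 27 tested integrins and adhesion genes 1 rose and 6 fell (median -0.22). Pecam1, the adhesion receptor CD31, had 1280, 1094 and 1040 at day 5 and 4176, 3734, 3675 and 3560 in untreated libraries (-1.74 ± 0.18, adjusted p = 2.05e-07). Itgb5 (-1.18), Icam2 (-1.10) and the tetraspanin gene Cd81 (-0.84) fell and Alcam rose (0.84).

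The G1 kinases and their inhibitors changed in part. Of 18 G1 genes 5 rose and 2 fell (median 0.25), and the second fall, Cdk6, was lost without the libraries named beside it above. Cdk4, the partner kinase of Cdk6, had 5643, 5829 and 5233 at day 5, against 8088, 7744, 7651 and 8188 in untreated libraries, 70.3% of the untreated mean (-0.51 ± 0.07, adjusted p = 1.83e-05). Cdkn1a, the inhibitor p21, had 1643, 1970 and 1899 at day 5 and 866, 905, 888 and 1029 in untreated libraries (0.99 ± 0.18, adjusted p = 0.000363). Ccnd2, cyclin D2, had 2647, 2999 and 2777 at day 5 and 1348, 2078, 1512 and 1510 in untreated libraries (0.82 ± 0.16, adjusted p = 0.000957). These changes, and those of the inhibitor gene Cdkn2d (0.62) and of Rb1 (0.45), were called in every fit without 1 library.

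DNA replication and mitosis genes had small median changes. Of 48 DNA replication genes none rose (3 at an unadjusted p under 0.05, none with edgeR or DESeq2) and 6 fell (median -0.10), 3 without day 5 replicate 3. Rfc2, a clamp loader subunit, had 2964, 2800 and 2451 at day 5, against 4293, 4025, 4036 and 3999 in untreated libraries (-0.58 ± 0.08, adjusted p = 6.29e-06). Of 36 mitosis genes 6 rose and none fell (median 0.20). In 35 of the 36 the change was above 0, beside 49.5% of all genes. In 13 every day 5 library lay above every untreated one, beside 18.7% of all genes. The rises were 2 without day 5 replicate 3 and 3 without untreated replicate 2 and likewise without untreated replicate 4. Ccnb2, a mitotic cyclin, and Cdk1, its kinase, both rose by 0.41 on the log2 scale. Myc, the growth transcription factor, had 2366, 2321 and 2075 at day 5 and 4270, 3365, 3306 and 3446 in untreated libraries (-0.67 ± 0.14, adjusted p = 0.0013). Of the 34 MYC and ribosome biogenesis genes, 1 rose and 3 fell, Myc among them (median 0.08), with 1 fall without day 5 replicate 3 and 0 rises in 5 of the 7 fits without 1 library. Cytosolic ribosomal protein genes had a median of 0.03, with 1 of 51 higher and none lower (1 at an unadjusted p under 0.05). There were 0 rises without untreated replicate 1 and without day 5 replicate 2, and 2 falls without day 5 replicate 1.

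Glycolysis and cholesterol synthesis genes held more rises than the 6.49% of all genes. Of 21 tested glycolysis genes 8 rose and none fell (median 0.43), with 2 falls at an unadjusted p under 0.05, 1 fall with edgeR and 2 with DESeq2. The count varied from 2 to 8 without 1 library, 2 without day 5 replicate 1, 3 without day 5 replicate 2 and without untreated replicate 2, 4 without untreated replicates 1 and 3 in turn, and 5 without day 5 replicate 3. Slc2a1, the glucose transporter GLUT1, had 2090, 2126 and 1746 at day 5, against 1030, 815, 749 and 1508 in untreated libraries (1.003 ± 0.23, adjusted p = 0.00375). Aldoc, an aldolase, had 224, 213 and 170 at day 5 and 119, 101, 93.2 and 112 in untreated libraries (0.92 ± 0.21, adjusted p = 0.00352). Of 23 tested cholesterol synthesis genes 8 rose and 1 fell (median 0.42), with 2 rises without day 5 replicate 2, the library with the highest values, and 0 falls in 5 of the 7 fits without 1 library. Hsd17b7, a reductase of the pathway, had 514, 815 and 671 at day 5 and 292, 260, 279 and 289 in untreated libraries (1.23 ± 0.26, adjusted p = 0.00205). Hmgcs1, the enzyme before the rate-limiting step, had 588, 733 and 664 at day 5 and 393, 367, 403 and 432 in untreated libraries (0.73 ± 0.18, adjusted p = 0.00552).

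In the other lists 9.09% to 26.9% of tested members were called, beside 15.1% of all genes. In the list of p53 targets and apoptosis genes 26 were tested, with 3 rises and 2 falls. Bcl2, an inhibitor of apoptosis, had 771, 691 and 724 at day 5, against 2100, 1923, 1992 and 1659 in untreated libraries (-1.39 ± 0.24, adjusted p = 0.000249), whereas its relative Mcl1 rose (0.63). Of 39 tested lysosome genes 2 rose and 4 fell, with the protease gene Ctsl at 562, 559 and 585 at day 5 and 151, 177, 180 and 220 in untreated libraries (1.65 ± 0.30, adjusted p = 0.000334). The lysosomal hydrolase genes Glb1 (-0.80) and Hexa (-0.91) fell. Of 20 unfolded protein response genes 2 rose and 3 fell, among them Ern1, the stress sensor IRE1, with 954, 962 and 985 at day 5 and 2307, 1879, 1824 and 1997 in untreated libraries (-1.04 ± 0.15, adjusted p = 2.71e-05). Of 40 chromatin regulators none rose (1 at an unadjusted p under 0.05) and 6 fell, 2 without day 5 replicate 3. Among them was the demethylase gene Kdm5b at few reads, with 4.39, 12.9 and 6.01 at day 5 and 18.4, 27.9, 32 and 14.2 in untreated libraries (-1.51 ± 0.27). ATF4 and amino acid genes (6 of 26 higher, 1 lower), immediate early genes (4 of 30 higher, 2 lower), respiratory chain genes (4 of 38 higher, none lower, 1 at an unadjusted p under 0.05) and lipid efflux genes (2 of 22 higher) completed the lists. Without 1 library the rises in these came down to 2, 2, 0 and 1, the lowest counts being those without untreated replicate 1 or day 5 replicate 2 or 3. The falls of the p53 list and the rises of the lysosome and unfolded protein response lists came down to 1, and the falls of the lysosome list to 2, without untreated replicate 1 or day 5 replicate 3, among others.

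**Figure D4:**
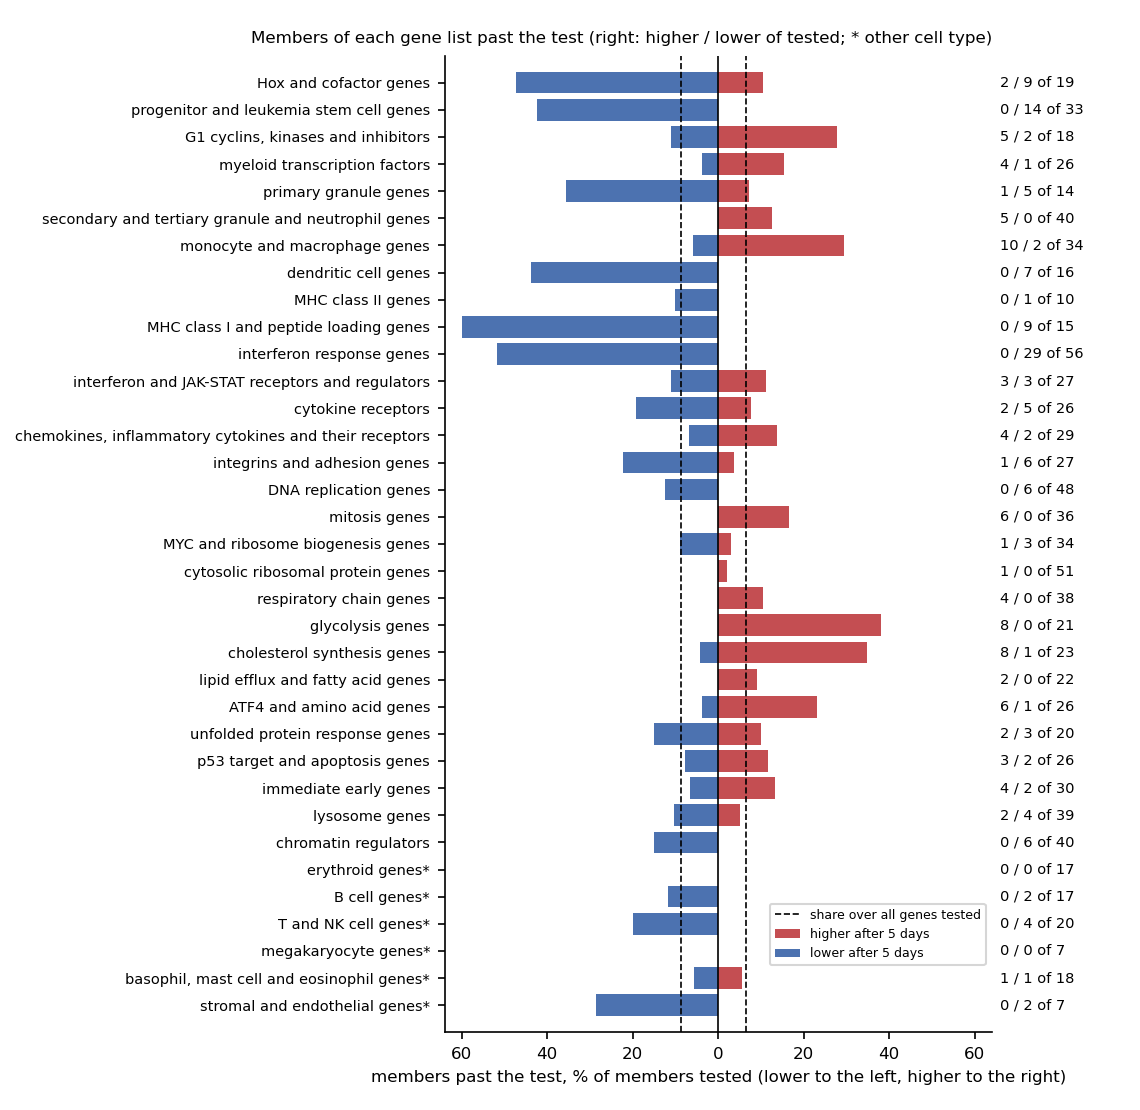
Share of the tested members of each gene list that were higher (to the right) or lower (to the left) after 5 days at adjusted p under 0.05, in percent, with counts at the right edge. Dashed lines mark the share over all genes, 6.49% higher and 8.63% lower. The class I, interferon response, Hox, dendritic cell and progenitor lists reach furthest to the left, and glycolysis, cholesterol synthesis and monocyte genes furthest to the right.

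Day 5 was also set against day 3 of doxycycline, which does not use the untreated libraries. Of 12682 genes 55 were higher at day 5 (0.434%) and 63 lower (0.497%), together 0.93%. Without 1 library the counts ran from 5 to 33 higher and from 4 to 43 lower, both smallest without day 5 replicate 3. Every one of these counts was over 1.5 times smaller than with all libraries except the falls without day 5 replicate 1, which numbered 43. Against the untreated libraries, which the day 5 comparison shares, day 3 had 17 rises (0.134%) and 120 falls (0.946%), together 1.08%. Spp1, the secreted phosphoprotein osteopontin, had 1026, 1722 and 1595 at day 5, against 531, 320 and 386 at day 3 (1.81, adjusted p = 0.00923). Hmox1, heme oxygenase, had 4093, 4745 and 4713 at day 5 and 2983, 1918 and 2058 at day 3 (0.99, adjusted p = 0.044). Zfp36l1 (1.59), the ganglioside synthase gene St3gal5 (1.39) and Id2 (1.09) were higher too. The named falls were Cd28, with 266, 171 and 145 at day 5 and 820, 820 and 746 at day 3 (-2.08, adjusted p = 0.011), Klrb1f (-1.47), Atp2b4 (-1.18), Hpgd (-1.04) and Frmd4b (-0.97). These 10 genes did not overlap between the days, as their choice required. Each of the calls was lost in 3 to 6 of the 6 fits without 1 library, with an adjusted p of up to 0.273. Those of Zfp36l1, Atp2b4 and Hpgd were lost in all 6 fits and those of St3gal5 and Hmox1 in 5, and every 1 of the 10 was lost without day 5 replicate 2 and without day 5 replicate 3. No interferon response gene was called between the days (median -0.21).

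The change with NUP98-DDX10 off differed from the mean change with NUP98-JARID1A and NUP98-NSD1 off in 2268 genes (17.9%), 989 with a positive (7.8%) and 1279 with a negative difference (10.1%). The positive count was 616 without day 5 replicate 1 and 649 without day 5 replicate 3. Against NUP98-JARID1A alone 1417 differences were positive (11.2%) and 1506 negative (11.9%), together 23%. Against NUP98-NSD1 alone 357 were positive (2.82%) and 697 negative (5.5%), together 8.31%. Called changes numbered 1917 (15.1%) with NUP98-DDX10 off, 5236 (41.3%) with NUP98-JARID1A off and 3223 (25.4%) with NUP98-NSD1 off. Hpgd changed by -2.17 with NUP98-DDX10 off, by 0.15 with NUP98-JARID1A off and by -0.07 with NUP98-NSD1 off (difference -2.21, adjusted p = 6e-06). Chil3 changed by 3.03, 0.10 and 0.61 in the same order (difference 2.67, adjusted p = 0.025). The Chil3 difference was not called without untreated replicate 1, day 5 replicate 2 or day 5 replicate 3, with an adjusted p of up to 0.0679. Hpgd fell and Chil3 rose with NUP98-DDX10 off, and neither was called with the other fusions off.

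Monocyte genes had a median of 0.40 with NUP98-DDX10 off, against 2.29 with NUP98-JARID1A off and 1.38 with NUP98-NSD1 off. A negative difference was found for 21 of 34, beside 10.1% of all genes. Ccr2 changed by -0.48, 1.23 and 1.38 in that order (difference -1.79, adjusted p = 9e-06). The class II gene H2-Aa changed by -1.13, 3.53 and 3.56 (difference -4.67, adjusted p = 0.00038), and 5 of 10 class II genes had a negative difference. Of 39 lysosome genes 17 and of 26 myeloid transcription factors 9 had a negative difference as well, against the same 10.1% of all genes.

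DNA replication genes ran the other way. Their median was -0.10 with NUP98-DDX10 off, against -0.81 with NUP98-JARID1A off and -0.35 with NUP98-NSD1 off. A positive difference was found for 26 of 48, 15 without day 5 replicate 1. Of all genes 7.8% had a positive difference, the share beside which the counts in this paragraph stand. MYC and ribosome biogenesis genes had medians of 0.08, -0.96 and -0.32, with 24 of 34 positive differences. In cholesterol synthesis the medians were 0.42, -0.66 and -0.30 and 16 of 23 differences were positive, 9 without day 5 replicate 2. Hsd17b7 changed by 1.23, -0.996 and -0.71 (difference 2.08, adjusted p = 8.2e-05), and cyclin D2 by 0.82, -0.68 and -0.16 (difference 1.24, adjusted p = 0.00012).

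**Figure D5:**
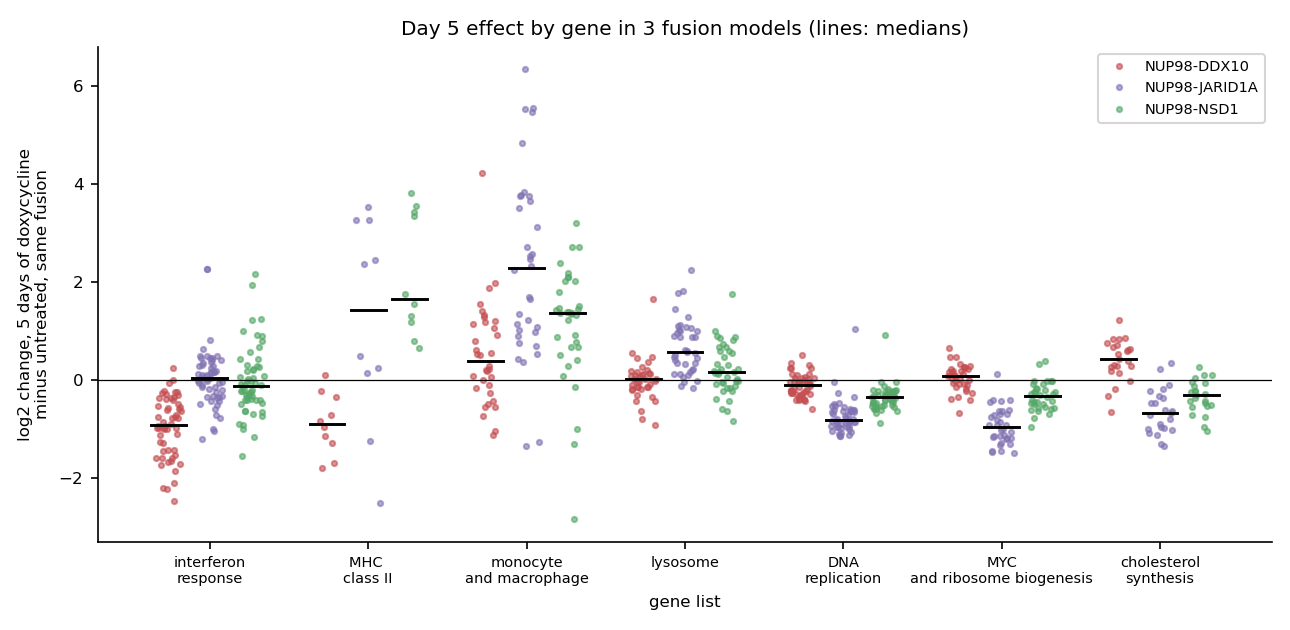
Log2 change after 5 days of doxycycline for the members of 7 gene lists in NUP98-DDX10, NUP98-JARID1A and NUP98-NSD1 libraries, each point 1 gene and each line the median. Interferon response genes lie lowest in NUP98-DDX10 (median -0.91, against 0.05 and -0.11), and cholesterol synthesis genes lie above 0 there (0.42, against -0.66 and -0.30).

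Markers of other cell types were absent or at low values in the 7 libraries. Hbb-bs and Hba-a1, the globin genes of red cells, Pax5 of B cells, Ncr1 of NK cells and Prss34 of basophils had no reads, and Cd3e of T cells had at most 1 read in a library. Further markers had reads in all 7 libraries. Mcpt8 of basophils had 73.1 to 115, the megakaryocyte gene Pf4 13 to 28.5 and Cdh5 of endothelial cells 14.3 to 31.2. No erythroid gene of 17 and no megakaryocyte gene of 7 tested was called (1 megakaryocyte gene was higher at an unadjusted p under 0.05). Of 17 B cell genes 2 fell, and 1 of them, Rag2, kept its call in every fit without 1 library, with 0 in all day 5 libraries and 7.15, 11.6, 14.6 and 9.46 in untreated libraries. The summed B cell list was 1307 to 1664 at day 5 and 1976 to 2149 in untreated libraries. Of 20 T and NK cell genes 4 fell, and the list summed to 172 to 288 at day 5 and 1263 to 2532 in untreated libraries, nearly all of it Cd28. Of 18 basophil, mast cell and eosinophil genes 1 rose and 1 fell, the mast cell protease gene Cpa3, with 3.29, 3.23 and 4.01 at day 5 and 45.9, 32.6, 59.2 and 44.5 in untreated libraries; the list summed to 520 to 572 and 824 to 1041. Of 7 stromal and endothelial genes 2 fell, Plvap and Pdgfrb, with none higher (1 at an unadjusted p under 0.05), and the sums were 102 to 148 at day 5 and 308 to 419 in untreated libraries. The sums of the B cell, T and NK cell, basophil and stromal lists were lower at day 5, as were the dendritic cell and class II genes. Those of the erythroid and megakaryocyte lists overlapped between the groups. The part of other cell types in the dendritic cell and class II results was not tested.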

How the data were processed

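The libraries measure poly-A RNA of sorted marrow cells. The authors deposited a signal per gene, namely read counts scaled by a size factor of each library. The authors used STAR, SAMtools, featureCounts and DESeq2 with GRCm38 or mm10, per the submitters' processing notes; versions and the use of strand in counting are not given in the sources used here. Within a tolerance of 0.01 reads, 100% of values gave whole reads, and the 7 libraries held 12510513 to 15554633 reads in genes. Counting error is large for genes with few reads, such as Oas1g and Kdm5b. Of 24454 genes, 24376 had a RefSeq symbol by Entrez identifier.

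Values with a pseudocount of 1 were taken to log2 and fitted with limma 3.58.1 (R 4.3.3), 10 group means over all 33 RNA libraries and a mean-variance trend (27.3 total degrees of freedom, median). A feature entered if 3 or more libraries reached a value of 10, which held for 12682 genes and 5 constructs, and p-values were adjusted by Benjamini-Hochberg over all of them. The difference between fusions was an interaction contrast in that fit. edgeR 4.0.16 (quasi-likelihood) on the recovered reads called 826 genes higher and 1053 lower after 5 days, and DESeq2 1.42.0 was run as well. The fit was tested on simulated data for the day 5 comparison over 12687 features. All simulated libraries had the untreated NUP98-DDX10 means and 1 dispersion for every gene, and only genes with a mean over 50 were changed. Of 50 genes each set to a log2 change of 1, -1, 2 and -2, it recovered 30, 24, 50 and 50, and it called 7 of 12487 unchanged features. In the data the spread can differ between genes, groups and libraries, so these rates hold for the simulated setting alone.

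Named genes were Cdk6 and the construct and fusion part genes; the 12 largest rises and falls with a plain symbol, a mean over the 7 libraries above the median and groups that do not overlap; per list, up to 4 members of smallest adjusted p and further members as examples; and the 5 largest of each direction in the day 5 against day 3 and the difference comparisons. The members and lists were chosen with earlier results of these data known. Replicate numbers did not pair the libraries. Alternatives changed the pseudocount, filter, scaling, tool, libraries and block. The chromatin immunoprecipitation samples were not analysed here. A few genes under the rule for named genes are not reported here.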

Additional observations from a re-analysis of the deposited data

Results flagged for a closer look

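Of 171 named features checked, 9 had 1 untreated library far from the other 3, where chance alone gives about 5% of groups. The gap to the nearest library, as a share of the range of the 4, was 0.967 for Dpep2, 0.91 for Frmd4b, 0.903 for Plac8, 0.874 for Rfc2, 0.855 for Myc, 0.883 for Ldha, 0.931 for Rpl19, 0.847 for Edem1 and 1.0 for Ear2. The far values were, for example, 534 in untreated replicate 4 for Dpep2, and 4270 in untreated replicate 1 for Myc, the library titled day 3.

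The change with NUP98-DDX10 off differed from the mean change with the other fusions off in 2268 genes, by the test of the difference. Among 36 named genes checked, 18 passed it, beside 17.9% of all genes. The 5 largest differences of each sign were named because they passed this test. The count of 18 therefore does not measure how often named genes differ. Positive differences in log2 change were 5.17 for Tcf7, 2.67 for Chil3, 2.11 for Serpinf1, 2.05 for Slc4a8, 1.92 for Gpx3, 1.45 for Hal, 1.16 for Cdk6, 1.12 for Dpep2 and 0.603 for Ddx10. Negative differences were -4.67 for H2-Aa, -4.3 for Cd74, -3.98 for Ckb, -3.23 for Mmp25, -3.19 for Pltp, -2.21 for Hpgd, -1.47 for Cbfa2t3, -1.44 for Heg1 and -0.931 for Tsc22d1. Tcf7 had 0 to 2.2 normalized counts at day 5 and 0 to 3.49 in untreated NUP98-DDX10 libraries, so its difference comes from its fall by 8.44 with NUP98-NSD1 off and by 1.66 with NUP98-JARID1A off.

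Reads for a NUP98-HOXA9 construct, which no sample is titled with, were found in the NUP98-DDX10 libraries, at most 7 in a library. They numbered 2, 7 and 0 at day 5, against 7, 2, 5 and 6 in untreated libraries, and 0 in the 3 control libraries.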

How the results depend on the processing

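Rises after 5 days numbered 1679 with the 7 libraries alone in the fit, 516 with only the untreated libraries titled day 5, 2379 with array weights, 276 with the replicate block (6 libraries titled day 5) and 1401 without the block in those 6; falls numbered 1838 with the 7 libraries alone, 2426 with array weights and 414 with the block. Between day 5 and day 3, rises numbered 28 without a filter, 32 with quantile normalization, 729 with array weights, 0 with the block and 123 with DESeq2, and falls 36 without a filter, 755 with array weights, 0 with the block and 167 with DESeq2. The fit without the block in those 6 libraries was chosen after seeing the data. Positive and negative differences from the other fusions numbered 2721 and 2949 with array weights, and 357 and 697 against NUP98-NSD1 alone. Cdk6 changed by -0.78 (adjusted p = 0.0501) with only the untreated libraries titled day 5. Without 1 library, rises ran from 379 to 738 and falls from 612 to 967 after 5 days, from 5 to 33 and from 4 to 43 between the days, and from 616 to 957 and from 883 to 1208 for the differences. Cdk6 ran from -0.91 to -0.78 and the fusion transcript from -10.92 to -10.53. The cause of these shifts was not tested. Same-numbered libraries did not deviate together (r of -0.005, -0.118 and -0.07), so the numbers pair nothing in the labels. Of 146 named calls after 5 days 101 held in every fit without 1 library, and all 10 named calls between the days were lost in some. The block lost 61 of 136 named day 5 calls, against 8 without it in the same libraries, and all 10 between the days; none reversed in any alternative tried. The median shift of all genes under other scalings stayed within 0.03.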
